A study of Homo sapiens with 4 samples.

Results

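The NKG2 receptors and the ligands of NKG2D were followed in HCT116, a human colorectal carcinoma cell line, with and without 5-aza-2'-deoxycytidine, which inhibits DNA methyltransferases. The members are 10 genes of the 19929 gene symbols that the array's annotation names: the 5 receptor genes KLRC1, KLRC2, KLRC3, KLRC4 and KLRK1, and the 5 ligand genes MICA, MICB, ULBP1, ULBP2 and ULBP3. They were taken through every probe set whose annotated symbols all lie among these 10, which gave 12 probe sets of 33297. Each gene is given by its own probe set with the highest mean over the 4 arrays, and MICA and MICB have a second one. KLRC2 and KLRK1 have no probe set of their own. They share one with KLRC3 and with KLRC4, respectively, so 8 members have a value of their own. The members were chosen by their differences between the treated and the vehicle arrays, receptors against ligands, so their values below are a description and carry no test.

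The samples were 2 arrays of vehicle-treated cells and 2 arrays of cells given 1 µM 5-aza-2'-deoxycytidine, abbreviated 5aza. Treatment began 24 hours after seeding and was repeated 48 hours after the first dose, and RNA of both groups was taken at 72 hours. The vehicle is not named in the labels. All arrays come from 1 carcinoma line, and the labels do not say whether the numbered samples came from separate cultures, so each p-value reflects only how these arrays vary, and that variation may be technical. Values are log2 levels made by the robust multi-array average (RMA). Levels were compared between arrays for a probe set and not between probe sets. Fewer cells of a type and less RNA per cell cannot be told apart in such samples, and the table holds no detection calls.

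NKG2D, the product of KLRK1, is an activating receptor of natural killer (NK) cells and cytotoxic T cells. It binds MICA, MICB and the ULBP proteins, relatives of MHC class I that stressed, infected or transformed cells put on their surface, and it signals through the adaptor encoded by HCST. The KLRC genes encode the other NKG2 receptors: the inhibitory NKG2A (KLRC1) and the activating NKG2C (KLRC2) and NKG2E (KLRC3) pair with CD94, the product of KLRD1, while KLRC4 encodes the less studied NKG2F. NKG2A and NKG2C with CD94 recognise HLA-E. The receptors belong to lymphocytes and the ligands to target cells such as this carcinoma line, where DNA methylation is one of several known layers of ligand control.

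Promoter sequences are shown because the drug acts on CpG methylation and the receptor and ligand genes differ in how many CpG dinucleotides lie at their starts. RefSeq windows of 300 bases (GRCh38.p14, 250 bases before to 50 after a transcript start) were found for 8 members, 3 receptors and all 5 ligands. CpG dinucleotides (the letters CG, which read the same on both strands) are in capitals. RAET1L, a further NKG2D ligand gene that is not one of the 10 members, is shown beside its relative ULBP2 because the 2 genes differed in response. All are written 5′ to 3′ along the gene.
KLRC1, chr12:10454636-10454935, minus strand: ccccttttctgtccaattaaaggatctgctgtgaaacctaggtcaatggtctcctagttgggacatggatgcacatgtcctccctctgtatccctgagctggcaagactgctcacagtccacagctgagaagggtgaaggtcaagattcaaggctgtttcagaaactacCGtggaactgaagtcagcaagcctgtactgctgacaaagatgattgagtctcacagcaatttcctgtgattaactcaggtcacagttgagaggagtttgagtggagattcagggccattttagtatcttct
KLRC3, chr12:10420546-10420845, minus strand: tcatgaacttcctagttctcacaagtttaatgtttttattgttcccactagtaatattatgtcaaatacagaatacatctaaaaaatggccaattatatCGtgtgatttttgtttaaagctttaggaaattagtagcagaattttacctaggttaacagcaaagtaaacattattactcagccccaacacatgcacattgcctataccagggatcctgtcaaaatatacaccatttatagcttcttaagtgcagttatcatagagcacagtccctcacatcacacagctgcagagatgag
KLRC4, chr12:10409708-10410007, minus strand: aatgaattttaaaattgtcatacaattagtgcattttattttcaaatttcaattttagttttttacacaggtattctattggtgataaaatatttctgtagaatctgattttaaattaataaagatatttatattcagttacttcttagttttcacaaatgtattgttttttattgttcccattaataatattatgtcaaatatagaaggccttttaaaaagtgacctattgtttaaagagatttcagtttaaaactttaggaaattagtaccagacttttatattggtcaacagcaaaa
MICA, chr6:31403345-31403644, plus strand: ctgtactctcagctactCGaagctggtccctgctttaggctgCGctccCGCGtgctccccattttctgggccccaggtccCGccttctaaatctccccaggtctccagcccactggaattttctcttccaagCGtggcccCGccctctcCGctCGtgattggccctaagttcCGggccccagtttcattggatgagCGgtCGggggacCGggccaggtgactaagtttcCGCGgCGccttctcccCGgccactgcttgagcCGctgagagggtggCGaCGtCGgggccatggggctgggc
ULBP2, chr6:149941764-149942063, plus strand: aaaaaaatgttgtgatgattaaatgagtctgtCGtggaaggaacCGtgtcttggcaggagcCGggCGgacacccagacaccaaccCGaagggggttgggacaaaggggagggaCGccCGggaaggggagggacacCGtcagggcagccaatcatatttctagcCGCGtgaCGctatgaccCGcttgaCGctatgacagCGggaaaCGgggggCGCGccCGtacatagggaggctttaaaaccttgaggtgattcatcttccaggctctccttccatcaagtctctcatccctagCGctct
RAET1L, chr6:150025483-150025782, minus strand: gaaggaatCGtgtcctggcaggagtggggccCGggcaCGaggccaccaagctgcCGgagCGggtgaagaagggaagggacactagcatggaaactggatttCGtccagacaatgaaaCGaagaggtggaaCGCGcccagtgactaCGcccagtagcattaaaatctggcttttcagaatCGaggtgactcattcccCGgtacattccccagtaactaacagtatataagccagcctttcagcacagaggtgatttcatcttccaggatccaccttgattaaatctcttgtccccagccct

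The receptor windows are nearly free of CpG. KLRC4 has 0, KLRC3 has 1 and the first of 3 KLRC1 windows has 1, the other two holding 0 and 3. Of all 35116 windows, 96.0% hold at least 1 CpG, and the median count is 14. At most 1 CpG is found in 11.0% of windows. The ligand members all lie above that median, with 19 for ULBP2, 20 for MICB, 21 for MICA, 26 for ULBP1 and 27 for ULBP3. RAET1L, with 12, lies below it. So do the NKG2D ligand genes RAET1G, with 10, and RAET1E, with 6, 5 and 3 in its windows. Neither RAET1G nor RAET1E was called a rise. Related genes share part of these windows: the best local alignment of KLRC3 with KLRC4 covers 157 bases at 80.9% identity, that of MICA with MICB 284 bases at 86.6%, and that of ULBP2 with RAET1L 78 bases at 73.1%. These counts describe the reference sequence only, since methylation was not measured on these arrays.

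**Figure D1:**
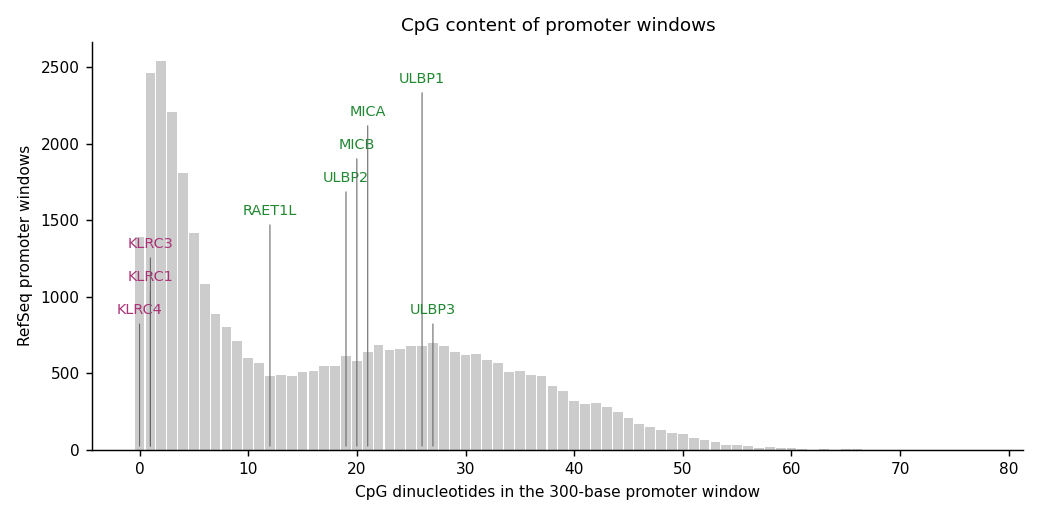
Number of RefSeq promoter windows of 300 bases (vertical axis) by their count of CpG dinucleotides (horizontal axis), with the first window of each member and of RAET1L marked. KLRC4, KLRC3 and KLRC1 lie at 0 or 1, and the ligand members between 19 and 27.

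Every receptor probe set was lower on both treated arrays than on both vehicle arrays. The gap ran from 1.42-fold for KLRC1 to 8.94-fold for the probe set shared by KLRC4 and KLRK1. Over the 5 receptor probe sets the median log2 difference, 5aza minus vehicle, was -1.76, beside -0.07 over all 17958 genes tested. Non-overlapping arrays with lower treated values were found for 38.5% of all probe sets, and for 5 of 5 receptor probe sets. Since the receptors were chosen in this comparison, nothing is read from that count.

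KLRC4, the NKG2F gene, was at 7.23 and 7.13 on the vehicle arrays and at 4.72 and 5.33 on the treated arrays. Both treated arrays lay far below both vehicle arrays, and they differed more from each other than the vehicle arrays did. The log2 difference was -2.15 with a moderated standard error (SE) of 0.20, which is 4.45-fold lower. The probe set shared by KLRC4 and KLRK1, the NKG2D gene, read 7.66 and 7.44 in vehicle and 4.86 and 3.92 in treated cells, a log2 difference of -3.16 (SE 0.33). Its treated arrays spread most of all member probe sets (SD 0.67, n = 2), and here replicate 1 was the higher one, whereas on the KLRC4 probe set replicate 2 was higher. How much of this value belongs to KLRK1 was not determined, since no probe set names KLRK1 alone.

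KLRC3, which encodes NKG2E, was at 5.86 and 6.16 in vehicle and at 4.67 and 4.56 in treated cells, 2.63-fold lower (log2 difference -1.40, SE 0.14). The probe set shared by KLRC2, the NKG2C gene, and KLRC3 was at 7.20 and 7.31 in vehicle and at 5.59 and 5.40 in treated cells, a log2 difference of -1.76 (SE 0.13). It was the tightest of the receptor probe sets, with SD of 0.08 and 0.13 (n = 2 each). KLRC1, the inhibitory NKG2A gene, was at 3.69 and 3.70 in vehicle and at 3.01 and 3.38 in treated cells. Its groups did not overlap, but the difference of -0.50 (SE 0.15) was the smallest among the receptors and ran from -0.69 to -0.31 with 1 array left out. KLRC1 and KLRC3 are among the 33.3% of genes with the lowest mean level, and 6 of the 8 members with a probe set of their own passed a filter that removes those genes. KLRC1, KLRC2 and KLRC3 are close paralogs, and cross-hybridization between them was not tested.

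**Figure D2:**
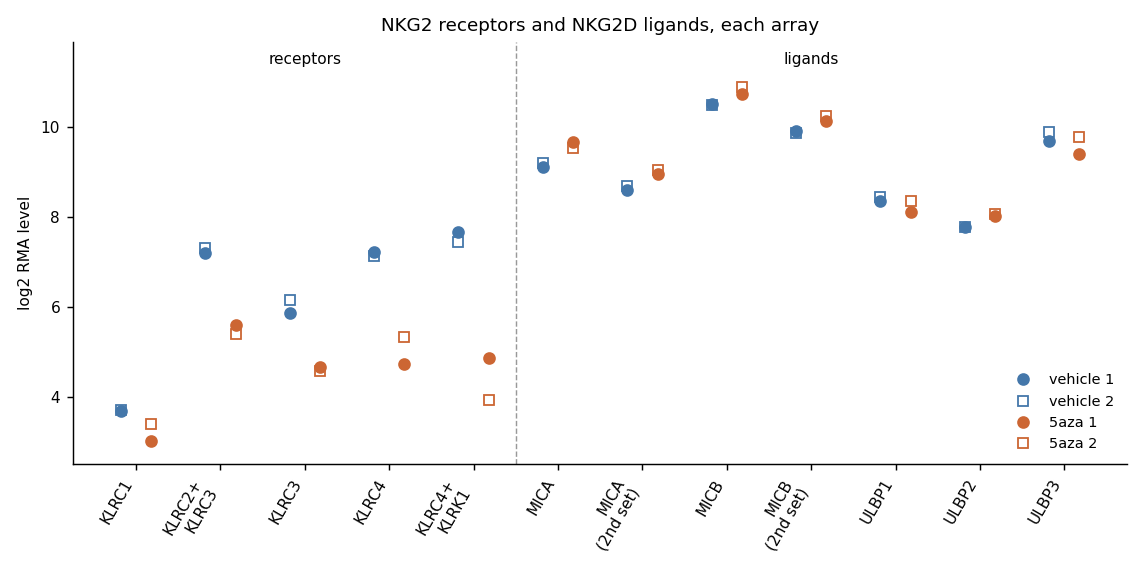
Log2 RMA level (vertical axis) of the 12 member probe sets on each of the 4 arrays, vehicle in blue and 5aza in orange, replicate 1 filled and replicate 2 open. All 5 receptor probe sets have lower treated than vehicle values, and the ligands moved little, with overlapping groups for ULBP1 and ULBP3.

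The ligand genes differed little between the groups, and 3 of 5 were slightly higher after treatment. Their median log2 difference was 0.26. Non-overlapping arrays with higher treated values occurred for 26.3% of all genes. MICA was at 9.11 and 9.21 in vehicle and at 9.67 and 9.54 in treated cells, 1.37-fold higher (log2 difference 0.45, SE 0.12). Its second probe set moved alike, from 8.60 and 8.69 to 8.95 and 9.04 (log2 difference 0.35, SE 0.11). MICB, the neighbouring relative of MICA, was at 10.51 and 10.49 in vehicle and at 10.73 and 10.88 in treated cells, 1.23-fold higher (log2 difference 0.30, SE 0.12), with 0.28 on its second probe set. Both MIC genes had higher treated values on each of their probe sets. Whether the probe sets of a gene share probes was not assessed, so they may not be separate measurements.

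The ULBP genes, which encode ligands without the membrane-proximal domain of the MIC proteins, did not move together. ULBP2 was at 7.78 on both vehicle arrays and at 8.02 and 8.06 on the treated arrays, a log2 difference of 0.26 (SE 0.11). ULBP1 was at 8.36 and 8.43 in vehicle and at 8.12 and 8.36 in treated cells. ULBP3 was at 9.69 and 9.88 in vehicle and at 9.41 and 9.79 in treated cells. The groups overlapped for both, and their differences of -0.15 (SE 0.13) and -0.19 (SE 0.16) were about as large as their errors. That of ULBP3 ran from -0.38 to 0.00 over the alternative settings, those of the MIC genes and ULBP2 stayed above 0. Centring the arrays on housekeeping genes gave a ligand median of 0.34 and a receptor median of -1.68.

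In limma's test 5023 genes, 28.0% of all tested, had a Benjamini-Hochberg adjusted p under 0.05, which is called a rise (2229 genes, 12.4%) or a fall (2794 genes, 15.6%). With housekeeping centring the split was 2617 rises and 2116 falls. By the same rule 4 of the 8 members with a probe set of their own were called, the falls of KLRC1, KLRC3 and KLRC4 and the rise of MICA. The comparison chose these genes, so the count is given without a reading. With all probe sets fitted the count was 2, both falls, and neither MICA probe set was called. It was 2, both falls, without vehicle replicate 1, without vehicle replicate 2 and without 5aza replicate 1. Over the 4 fits with 1 array left out the difference of KLRC4 ran from -2.46 to -1.85, and that of MICA from 0.39 to 0.51.

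**Figure D3:**
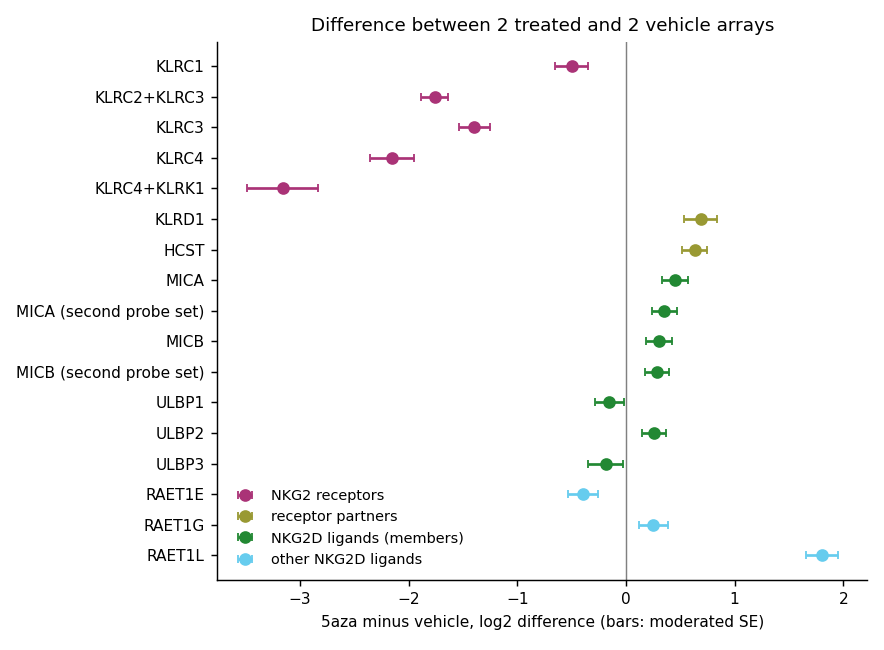
Log2 difference, 5aza minus vehicle (horizontal axis, bars are moderated SE), of the receptor probe sets, the receptor partners KLRD1 and HCST, the ligand members and the other NKG2D ligand genes. The receptors lie between -3.16 and -0.50, the ligand members between -0.19 and 0.45, and RAET1L at 1.80.

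Genes outside the 10 members were tested. Each count of calls below is to be read beside the shares over all genes, 12.4% rises and 15.6% falls. No list was tested as a set. Of the 3 other NKG2D ligand genes, RAET1L rose and the other two did not pass. RAET1L, which encodes ULBP6, was at 7.03 and 7.00 in vehicle and at 8.63 and 9.00 in treated cells. It rose 3.48-fold (log2 difference 1.80, SE 0.15, limma adjusted p = 0.000288) and was called in each of the 4 fits with 1 array left out. RAET1G, the ULBP5 gene, had a difference of 0.25 (SE 0.13, limma adjusted p = 0.205), and RAET1E, the ULBP4 gene, of -0.39 (SE 0.14, limma adjusted p = 0.0770). Without 5aza replicate 1 RAET1E was called as a fall too. With repeated quantile normalization of all 4 arrays the list held 1 rise and 1 fall. At an unadjusted p under 0.05, 1 of the 3 was higher and 1 lower. The ULBP and RAET1 genes are close relatives, and cross-hybridization between them was not tested.

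Of 10 tested genes listed as receptor partners, adaptors or lymphocyte signalling genes, 4 rose and 1 fell, with a median difference of 0.06. Among all genes 12.4% rose and 15.6% fell. KLRD1 and CD247 are counted again among the NK and T cell markers below. KLRD1, the CD94 gene that completes the NKG2A, NKG2C and NKG2E receptors, was at 3.52 and 3.57 in vehicle and at 4.42 and 4.04 in treated cells, a rise of 1.61-fold (SE 0.15 log2, limma adjusted p = 0.0171). HCST, the NKG2D adaptor, went from 5.09 and 4.99 to 5.71 and 5.64 (1.55-fold, limma adjusted p = 0.00836). The kinase ZAP70 rose 2.73-fold and CD247, the zeta chain of the T cell receptor, 1.42-fold. VAV1, an exchange factor downstream of the receptors, fell 1.69-fold. Without vehicle replicate 1 the list held 1 rise and 1 fall, and without vehicle replicate 2 it held 1 rise. ZAP70 was called in all 4 such fits, while KLRD1, HCST and CD247 lost the call when either vehicle array was left out. With repeated quantile normalization the difference of CD247 was 0.27 and lost its call, and that of HCST was 0.39 and kept it. HLA-E and TYROBP have no probe set that names them alone.

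Genes that act on the ligands include those of ligand shedding. Of 11 tested, 4 rose and 1 fell, beside 12.4% rises and 15.6% falls among all genes. The matrix metalloproteinases MMP2 (4.11-fold, from 3.95 and 4.17 to 6.11 and 6.10) and MMP9 (1.89-fold) rose, as did their inhibitors TIMP3 (1.57-fold) and TIMP1 (1.34-fold). PDIA6, a disulfide isomerase that takes part in MICA shedding, fell 1.70-fold. The 2 disintegrin proteases best known for cutting these ligands did not pass: ADAM10 had a difference of -0.42 (limma adjusted p = 0.0991) and ADAM17 of -0.02 (limma adjusted p = 0.934). With either vehicle array left out the calls in this list were the rises of MMP2 and MMP9, and without 5aza replicate 2 the 3 calls were rises. PDIA6 also lost its call with housekeeping centring, and its difference was -0.44 without 5aza replicate 2. TIMP3 lost its call where probe sets were averaged.

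Of 19 regulators linked to ligand expression, 2 rose and 4 fell, while 28.0% of all genes were called. The count lies near that share and is not read as a result about this list. EGFR, a growth factor receptor, rose 1.87-fold and JUND, an AP-1 factor, 1.90-fold. The checkpoint kinases CHEK1 (1.67-fold) and CHEK2 (1.72-fold), the cell cycle factor E2F1 (1.66-fold) and the promoter-binding factor SP1 (1.38-fold) fell. ATM, the kinase upstream of CHEK2, had a difference of -0.30 (limma adjusted p = 0.156). Both rises were called in all 4 fits with 1 array left out; the falls numbered 1 without vehicle replicate 1, 2 without vehicle replicate 2, 7 without 5aza replicate 1 and 2 without 5aza replicate 2, where CHEK2 had a difference of -0.49. SP1 lost its call with housekeeping centring.

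Ligands of other NK cell receptors were also measured. Of 20 tested, 5 rose and 0 fell by limma, beside 12.4% rises and 15.6% falls among all genes. Before adjustment, 5 were higher and 2 lower with a p under 0.05. The adhesion molecule ICAM2 rose 9.56-fold, from 5.28 and 5.22 to 8.21 and 8.81, and ICAM1, its relative, 1.84-fold. CDH2, the cadherin bound by KLRG1, rose 4.67-fold, SLAMF7, a self-ligand of lymphocytes, 2.02-fold and NCR3LG1, the ligand of NKp30, 1.67-fold. All but NCR3LG1 were called in each of the 4 fits with 1 array left out. The list median was 0.04.

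Markers of NK and T cells were set beside the receptors because the receptors belong to those cells. Of 32 tested, 12 rose and 0 fell by limma, beside 12.4% rises and 15.6% falls among all genes. Before adjustment, 13 were higher and 2 lower with a p under 0.05. PRF1, the pore-forming perforin, rose 9.33-fold, from 8.04 and 8.08 to 11.23 and 11.33 (limma adjusted p = 8.46e-06). IL2RB, a chain of the interleukin receptors, rose 6.95-fold, CD3D 3.47-fold and the chemokine XCL1 2.73-fold. Summed over the 32 markers, the log2 level was 145 and 147 in vehicle and 158 and 160.2 in treated cells. Single genes weigh heavily in this sum, such as PRF1 and IL2RB with log2 differences of 3.22 and 2.80. It does not describe the list as a whole. The list median was nevertheless -0.00, and 24 of its genes are among the 33.3% with the lowest mean level. NCR3, the NKp30 gene, rose 2.40-fold and TBX21, a transcription factor gene of NK and T cells, 1.53-fold; both are named after their values were seen. The 20 genes without a call ran from KLRG1 at -0.54 (limma adjusted p = 0.0731) to CD8B at 0.43 (limma adjusted p = 0.106). Leaving out vehicle replicate 1 gave 6 rises and 1 fall. A second quantile normalization gave 10 rises and 3 falls. By array, 13 of the 32 had both treated values above both vehicle values, beside 26.3% of all genes. For 10 of the 32 both treated values lay below. The share given for this direction, 38.5%, is over all probe sets, those without an annotated gene included. It is therefore not a like background for a count of genes. The receptors were chosen in this comparison and are not set against these counts. The part of other cells in the markers or the receptors was not tested.

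The carcinoma line's own markers were present in both groups, with KRT18 between 12.79 and 13.33 and EPCAM between 11.04 and 11.82 on the log2 scale. Of 9 epithelial markers tested, 4 fell and 2 rose, beside 12.4% rises and 15.6% falls among all genes. EPCAM, CLDN3, CLDN4 and the transcription factor ELF3 fell by 1.64-fold to 1.98-fold. KRT18 rose 1.36-fold and CDX2 1.63-fold. The falls were called in all 4 fits with 1 array left out. KRT18 kept its call in 1 of them and CDX2 in 2.

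**Figure D4:**
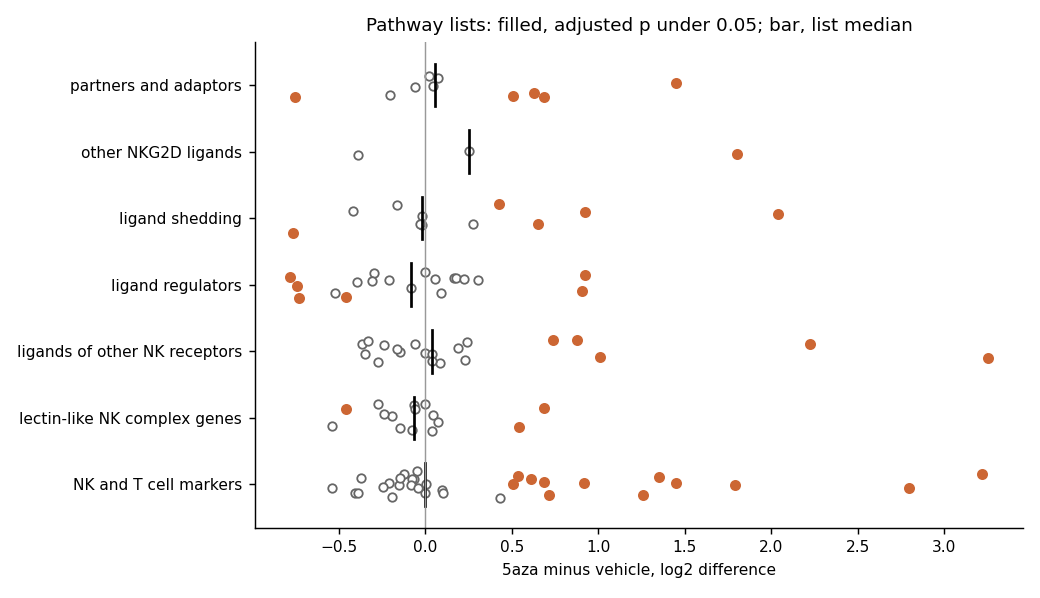
Log2 difference, 5aza minus vehicle (horizontal axis), of each tested gene in 7 lists of genes outside the members; filled points passed an adjusted p of 0.05 in limma, open points did not, and the black bar is the list median (vertical spread is for display). The medians lie between -0.08 and 0.25 while single genes such as ICAM2 and PRF1 exceed 3.

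The receptor genes lie side by side on chromosome 12, and the genes around them moved in both directions. Of 9 tested genes within the cluster or next to it (4 on each side), 2 rose and 4 fell. Among all genes 12.4% rose and 15.6% fell. Within it, the annotated readthrough transcript KLRC4-KLRK1 fell from 4.49 and 4.62 to 3.44 and 3.91 (log2 difference -0.88, SE 0.17). With 1 array left out its difference ran from -1.12 to -0.65. This transcript joins 2 members that were chosen in this comparison. Its fall, counted among the 4, is therefore a description and not that of a separate neighbour. On the KLRK1 side KLRD1 and OLR1, a scavenger receptor gene, rose (OLR1 by 0.54 on the log2 scale), and GABARAPL1 and TMEM52B did not pass. On the KLRC1 side the pseudogene KLRA1P, the splicing factor gene MAGOHB and STYK1, a kinase-like gene, fell, with differences of -0.64, -0.57 and -0.73. EIF2S3B did not pass (difference 0.11). Without vehicle replicate 1 there were 0 rises and 3 falls here, without vehicle replicate 2 there was 1 call, that of KLRC4-KLRK1, and without 5aza replicate 2 there were 3 rises and 2 falls.

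Among 15 tested lectin-like genes of the wider NK gene complex on this chromosome arm, 2 rose (KLRD1 and OLR1) and 1 fell (CLEC1B, difference -0.46). Among all genes 12.4% rose and 15.6% fell. The list median was -0.07, the same as over all genes. The 12 genes without a call ran from KLRG1, an inhibitory receptor gene, at -0.54 to CLEC12A at 0.07. All 15 are among the 33.3% of genes with the lowest mean level. CLEC1B lost its call under both alternative scalings. KLRD1, OLR1 and CLEC1B lost their calls when either vehicle array was left out. The list then held 1 fall of another gene without vehicle replicate 1 and 0 calls without vehicle replicate 2.

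The ligand genes lie at 2 loci on chromosome 6. Counts of calls around them stand beside 12.4% rises and 15.6% falls among all genes. Around ULBP1, ULBP2 and ULBP3, 1 of 9 tested genes rose and 3 fell. The rise was that of RAET1L, which lies between ULBP1 and ULBP3, the 2 members with overlapping groups. LRP11 fell by 0.60, PPP1R14C by 0.55 and MTHFD1L, a mitochondrial folate enzyme gene, by 0.68 on the log2 scale. LRP11 lost its call with housekeeping centring, with repeated quantile normalization and without vehicle replicate 1, vehicle replicate 2 or 5aza replicate 1, where its difference was -0.39. Without vehicle replicate 2 the 1 call was RAET1L, and without vehicle replicate 1 there was 1 fall beside it. Around MICA and MICB, 1 of 9 rose (NFKBIL1, difference 0.44) and 3 fell: HCP5, a noncoding RNA gene between the MIC genes (-0.58), MCCD1 (-0.50) and the small nucleolar RNA SNORD117 (-1.09). The class I genes HLA-B and HLA-C beside MICA had differences of -0.10 and -0.15 and did not pass. Without vehicle replicate 1 the 1 call was SNORD117, and without vehicle replicate 2 the 2 falls were SNORD117 and a gene not called with all arrays. NFKBIL1, HCP5 and MCCD1 lost their calls when either vehicle array was left out.

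**Figure D5:**
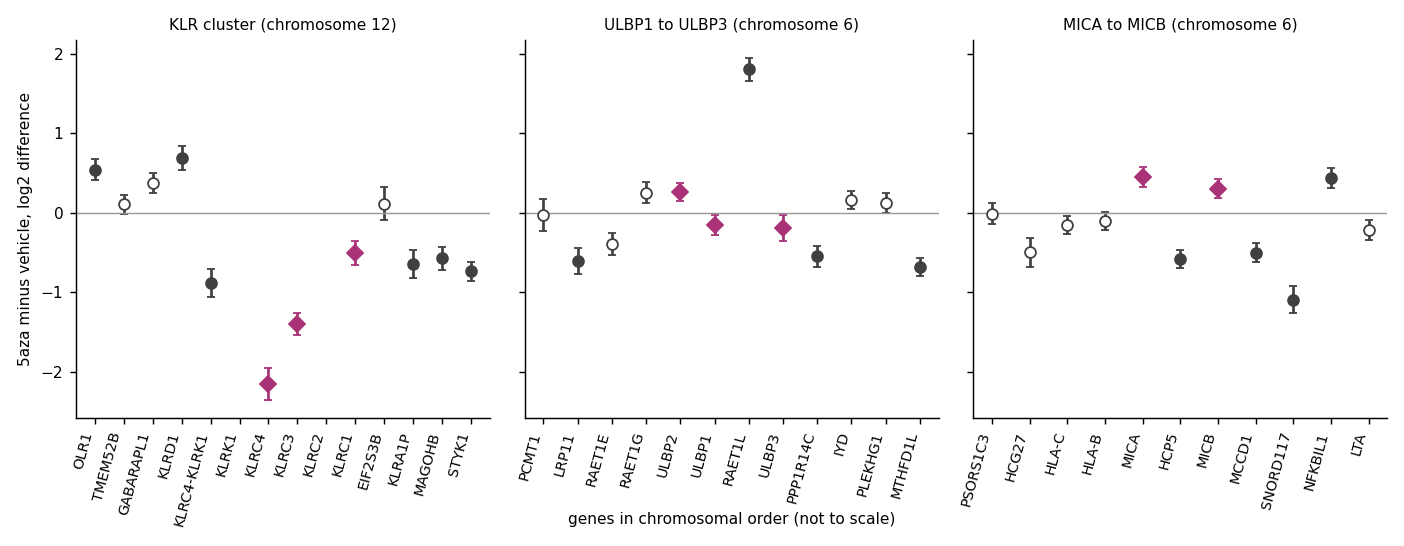
Log2 difference, 5aza minus vehicle (vertical axis, bars are moderated SE), of members (diamonds) and of the tested genes around them (circles, filled where called) in chromosomal order, not to scale; KLRK1 and KLRC2 have no probe set of their own. KLRC4, KLRC3 and KLRC1 are flanked by KLRD1 at 0.69 on one side and STYK1 at -0.73 on the other, and RAET1L stands at 1.80 among ULBP genes near 0.

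The genes whose 4 array values were most like those of KLRC4, each gene centred on its vehicle mean, were the histone genes H3C12 and H4C4, FABP6, a bile acid-binding protein gene, and MYB, a transcription factor gene. Their root mean square distances from KLRC4 were 0.20, 0.23, 0.25 and 0.25 on the log2 scale, over 4 arrays. MYB, for example, was at 8.43 and 8.51 in vehicle and at 6.48 and 6.49 in treated cells. For MICA, which has the highest difference among the 8 members with a probe set of their own, the nearest genes were BST1, SURF2, PSMB8 and TRAM1L1, at distances from 0.01 to 0.03. BST1 was at 5.48 and 5.58 in vehicle and at 6.06 and 5.93 in treated cells.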

How the data were processed

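The authors deposited 1 table of log2 values, a column per array, which the submitters' processing notes credit to Affymetrix Expression Console and RMA, a method that background-corrects, quantile normalizes and summarizes probes. The sources used here do not give versions, probe set definition or genome build. Array medians ran from 5.72 to 5.84. Of the probe sets, 19181 had 1 symbol in the annotation table, 2055 had several and 12061 were unlisted. Genes with several probe sets of their own (895) were represented by the one with the highest mean.

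The 17958 genes were fitted with limma 3.58.1 in R 4.3.3 (lmFit, eBayes, no covariate, two-sided), with Benjamini-Hochberg adjustment over all of them; the SE of shared and second probe sets comes from a fit of all 33297. With 2 arrays against 2, an exact permutation test cannot go below 0.333, so calls rest on pooled variance. The number of arrays limits the precision. The fit was tested on simulated data with independent noise and far fewer changed genes than were called here. That setting differs from these arrays, so nothing about the error rate of the present calls is read from it. Alternatives were housekeeping centring (21 genes), repeated quantile normalization, leaving out the dimmest 33.3% of genes, averaging probe sets, fitting all probe sets, a replicate block, an adjusted p of 0.01 and leaving out each array. Members and lists were chosen with earlier results of these data known. Named by rule were all members, called genes of each list (all where 5 or fewer in a direction, otherwise the 4 with the smallest p), KLRD1, HCST, HLA-E and TYROBP, called neighbours (the 4 nearest tested genes per side in the RefSeq order) and the 4 genes most like the members with the lowest and the highest difference. Promoter windows were aligned locally (match 1, mismatch -1, gap opening -5, extension -1).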

Additional observations from a re-analysis of the deposited data

How the results depend on the processing

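Of 59 non-member genes that are named and called, 26 were called in all 4 fits with 1 array left out; 28 lost the call without vehicle replicate 1, 27 without vehicle replicate 2, 4 without 5aza replicate 1 and 12 without 5aza replicate 2. Fitting all probe sets lost 23 of the 59, repeated quantile normalization 6, housekeeping centring 4 and averaging probe sets 1. The 59 include the readthrough transcript KLRC4-KLRK1 and the genes chosen because their values were most like those of KLRC4 or MICA. These counts therefore do not measure how stable the calls of genes chosen apart from these data would be. No called result reversed its direction under the alternatives run. At an adjusted p under 0.01, 2553 genes were called (1298 rises, 1255 falls), and with 1 array left out between 2463 and 5931. With 1 array left out the calls ran from 2 to 4 among the members, from 1 to 5 among partners and adaptors, from 1 to 2 among the other NKG2D ligands, from 2 to 6 for ligand shedding, from 3 to 9 for ligand regulators, from 0 to 3 for the lectin-like genes and from 7 to 13 for NK and T cell markers. They ran from 1 to 6 around the receptor cluster, from 1 to 4 around MICA and MICB and from 1 to 4 around the ULBP genes. Without the dimmest 33.3% of genes there were 2 calls among the members, 2 among partners and adaptors, 0 among the lectin-like genes, none of which were left to test, 5 among NK and T cell markers and 2 around the receptor cluster. With all probe sets fitted there were 2 among the members, 3 among partners and adaptors, 2 for ligand shedding, 0 among the lectin-like genes, and 2 around each of the 3 loci. The ligand median was 0.34 with housekeeping centring and 0.35 with repeated quantile normalization, against 0.26. Of the 21 housekeeping genes 1 rose and 1 fell. The cause of these changes was not tested.

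The replicate block, which treats equal replicate numbers as pairs, gave 6639 calls (2805 rises, 3834 falls) and 2 calls among the other NKG2D ligands; deviations of same-numbered arrays correlated at 0.27 over genes, and the labels do not say that the numbers pair the samples. With 2 arrays a group, a probe set near the lowest levels, such as that of KLRC1, has a signal whose distance from background is unknown, since no detection values were used here.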
